A study of Homo sapiens with 6 samples.

Results

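H3K4me2, the dimethyl mark on lysine 4 of histone H3, was mapped by chromatin immunoprecipitation and sequencing (ChIP-seq) in NCI-H526 cells, a line established from a human small cell lung cancer. Of the 81619 distinct H3K4me2 intervals with DMSO, the vehicle, 16486 overlapped no H3K4me1 interval and no LSD1 peak by as little as 1 bp. These 16486 are called unaccompanied H3K4me2 intervals here, and the other 65133 accompanied. They were chosen by 4 peak lists, namely H3K4me2 with DMSO, H3K4me1 with DMSO, LSD1 with DMSO and LSD1 with GSK552, the label of the samples given an LSD1 inhibitor. The labels' treatment text, repeated for all samples, gives 1 µM GSK2879552 for 24 hours, taken here to concern the GSK552 libraries alone. Each group was 1 library of the same line, grown in the same medium, and 2 input libraries were not used here. With no replicates, no comparison carries a p-value, and Wilson intervals (95%) cover counting error only. Genome positions are those of hg19, each peak's fold, −log10 q and score (10 times −log10 q, as a whole number) are the authors' own values, and the read depth is unknown.

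As background, methyl groups are added to lysine 4 of histone H3 by the MLL and SET1 family of enzymes, and LSD1 (KDM1A) removes them from the mono- and dimethyl forms. H3K4me1 is typical of enhancers and of the flanks of active promoters, whereas H3K4me2 is found at enhancers and promoters alike. Chromatin close to an active start site often carries H3K4me2 or H3K4me3 with little H3K4me1. GSK2879552 is an irreversible inhibitor of LSD1's catalytic activity.

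The rule left 20.2% of the H3K4me2 list (interval 19.9 to 20.5%), but the unaccompanied intervals held only 11.8% of its bases, 7.08 of 60.1 Mb. The other H3K4me2 intervals were 24495 with H3K4me1 only, 13601 with LSD1 only and 27037 with both. These shares come from the choice itself and are a description. The 2.02 floor of −log10 q in the H3K4me2 list, 2.01 in the H3K4me1 list and 1.00 and 1.01 in the LSD1 lists set what could be called absent, so an unaccompanied interval is one without a called peak and not one shown to lack H3K4me1 or LSD1.

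Under the 1 bp rule, most unaccompanied intervals were short and weak. Their median width was 272 bp, with quartiles of 193 and 489 bp. The smallest width in the list, 164 bp, was that of 1708 of them (10.4%), 7.86% of H3K4me1-only intervals and 5.69% of the whole list. Intervals with H3K4me1 only were nearly as short, with a median of 293 bp, while those with LSD1 only had 615 bp and those with both 764 bp. The median score was 65 for unaccompanied intervals and 63 with H3K4me1 only, against 152 with LSD1 only and 126 with both. In fold enrichment the medians were 5.52, 5.27, 8.05 and 7.34 in the same order. A single summit was reported for 78.6% of unaccompanied intervals (77.96 to 79.2%), 79.5% with H3K4me1 only, 46.5% with LSD1 only and 44.8% with both. The unaccompanied set and the H3K4me1-only set were thus alike in median width, median score and single-summit share. Both had lower medians than the 2 sets with LSD1. Their upper ranges differed, with a score upper quartile of 114 for unaccompanied and 93 for H3K4me1-only intervals. The 90th percentiles of width were 957 and 1160 bp.

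Width matters for such a rule, because a wide interval has more bases at which to meet another peak. From the narrowest to the widest decile, the unaccompanied share fell from 34.5% (33.5 to 35.6%) to 2.93% (2.58 to 3.32%), and across the score deciles it fell from 29.5% in the lowest to 4.77% in the highest. Within each of the 10 width deciles, the median score of LSD1-only intervals was above that of unaccompanied ones, for example 228 against 191 in decile 8, where widths were 800 to 1171 bp. Intervals with both H3K4me1 and LSD1 were above the unaccompanied ones in 6 width deciles, level in 1 and below in deciles 6, 7 and 8, with 152 against 191 in decile 8. H3K4me1-only intervals were above the unaccompanied ones in 2 width deciles, the widest pair, level in 1 and below in the other 7. In decile 7 their medians were 93 and 136. At like width, unaccompanied intervals therefore scored above H3K4me1-only intervals over most of the range, although the medians of the whole sets were close.

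**Figure D1:**
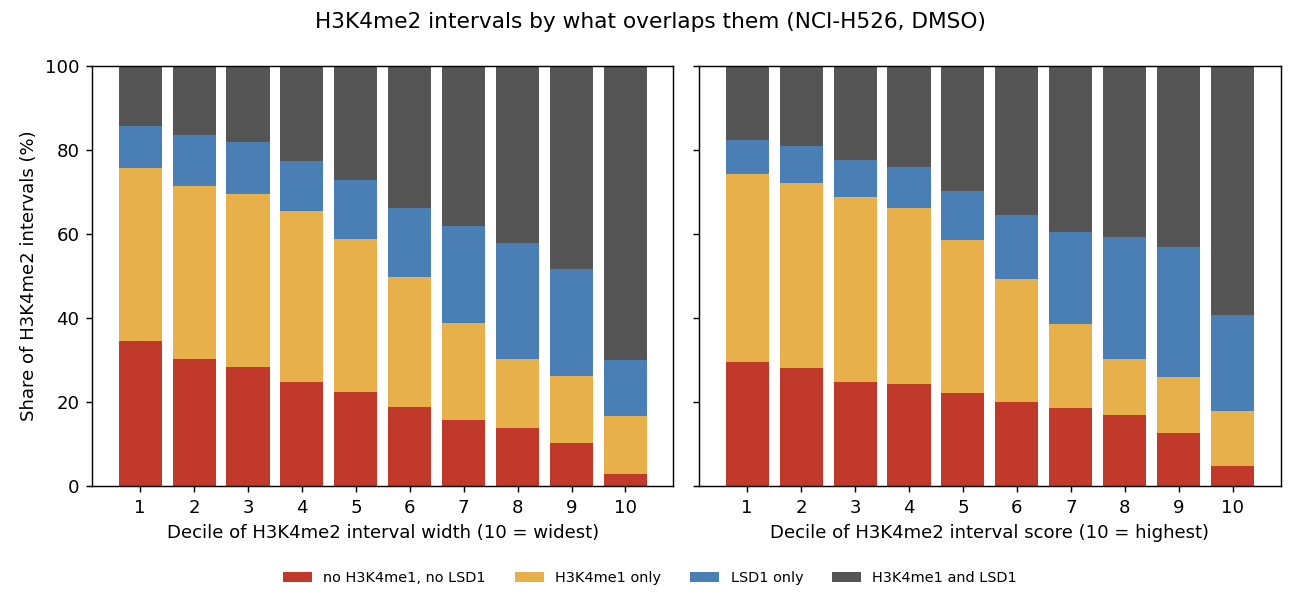
Bars show the share of H3K4me2 intervals (%) in each overlap class, by decile of interval width (left) and of deposited score (right). The unaccompanied share, in red, falls from 34.5% to 2.93% with width and from 29.5% to 4.77% with score.

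Strong unaccompanied intervals were few. None of the 100 highest-scoring H3K4me2 intervals was unaccompanied (Wilson upper bound 3.70%), 12 of the highest 1000 were, and 572 of the highest 10000 (5.72%, 5.28 to 6.19%). Those in the top score decile numbered 389. A width of 2 kb or more was found for 110 unaccompanied intervals (0.667%), 2.94% of H3K4me1-only and 4.90% of LSD1-only intervals, 16.4% of those with both and 7.27% of the whole list. The highest score of an unaccompanied interval was 809, whereas the list reached 1734.

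The highest-scoring one lay at chr17:78009747-78011434, with a score of 809, a fold of 26.0, 5 summits and rank 197 in the H3K4me2 list. No H3K4me1 or LSD1 peak touched it, but an H3K4me1 interval stood 978 bp away, an inhibitor LSD1 peak 1828 bp away and the nearest DMSO LSD1 peak 20.1 kb away. The second, at chr1:155241993-155243150, had a score of 771 and a fold of 17.8. An inhibitor LSD1 peak came within 76 bp of it, while DMSO LSD1 was 3.20 kb and H3K4me1 5.20 kb away. The first of these was thus near H3K4me1 and the second near LSD1 with inhibitor.

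The next pair stood by themselves. At chr3:129146299-129147536 the score was 707 and the nearest of the other 3 lists was H3K4me1, 6.05 kb away. At chr13:114461320-114463196 the score was 705 and H3K4me1 was again nearest, at 4.58 kb. Both had no other H3K4me2 interval within 1 kb. The most remote of the 10 highest was at chr20:37678165-37679255, with a score of 655, a fold of 22.3 and 6 summits, where H3K4me1 was 59.9 kb, DMSO LSD1 81.6 kb and inhibitor LSD1 86.7 kb away. The other 9 had an H3K4me1 or LSD1 peak within 76 bp to 6.05 kb, and 7 of the 10 within 1 kb. Of all unaccompanied intervals 57.0% had one within 1 kb, so such closeness was not particular to the 10 highest.

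The widest unaccompanied interval, at chr1:204376227-204380514, measured 4288 bp and had the most summits, 14. It reached a score of 372, and H3K4me1 was 396 bp away. The next, at chr5:114875635-114879818, was 4184 bp wide with a score of 315, with inhibitor LSD1 303 bp, H3K4me1 26.5 kb and DMSO LSD1 67.0 kb away. At chr3:119808900-119812611, 3712 bp wide with a score of 326, LSD1 peaks stood 100 bp (inhibitor) and 150 bp (DMSO) away. The 5 widest all had a peak of another list within 603 bp, so none of them was remote.

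At the boundary of the rule, 22 unaccompanied intervals directly adjoined another peak (gap of 0 bp), and 19 accompanied ones overlapped by 1 bp at most. At chr3:186499966-186500957, just inside, the score was 261 and an inhibitor LSD1 peak directly adjoined it. At chr6:106773770-106773994, just outside, the score was 148 and an inhibitor LSD1 peak shared 1 bp. A gap of up to 50 bp was found for 1116 unaccompanied intervals (6.77%), and a largest overlap of up to 50 bp for 1620 accompanied ones (2.49%). A gap and an overlap are unlike measures that meet at the boundary by the rule itself, so these shares are not compared.

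In the lists as deposited, most unaccompanied intervals lay close to an H3K4me1 interval or an LSD1 peak. Their median gap to the nearest peak of any of the other 3 lists was 716 bp (691 to 741 bp). Within 1 kb lay 9404 (57.0%, 56.3 to 57.8%), between 1 and 10 kb 3821 (23.2%), and beyond 10 kb 3261 (19.8%, 19.2 to 20.4%), of which 1001 were beyond 50 kb. Of the 9404 within 1 kb, 3429 were near H3K4me1 alone, 4138 near LSD1 alone and 1837 near both. The gaps were longer when weaker peaks were left out and the set was chosen anew. With the highest-scoring 50% of each list the median gaps were 25.3 kb to H3K4me1 and 20.7 kb to LSD1, in place of 4.35 and 1.89 kb, and with LSD1 peaks at a −log10 q of 2 or more the gap to LSD1 was 8.93 kb. As deposited, intervals beyond 10 kb were not the weakest by median, with a score of 81 and width of 319 bp against 63.5 and 262 bp within 1 kb. The 90th percentile of score was also higher, 230 against 209.7. The share in the top score decile was not, at 2.05% beyond 10 kb, 1.73% between 1 and 10 kb and 2.72% within 1 kb. The farthest lay at chrY:27038929-27039144, with a score of 60, 5.12 Mb from H3K4me1, and the next at chrX:140991903-140992092, with a score of 50, 1.95 Mb from LSD1. All 5 of the farthest had scores of 41 to 82, below the 83 that was the median of the H3K4me2 list.

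**Figure D2:**
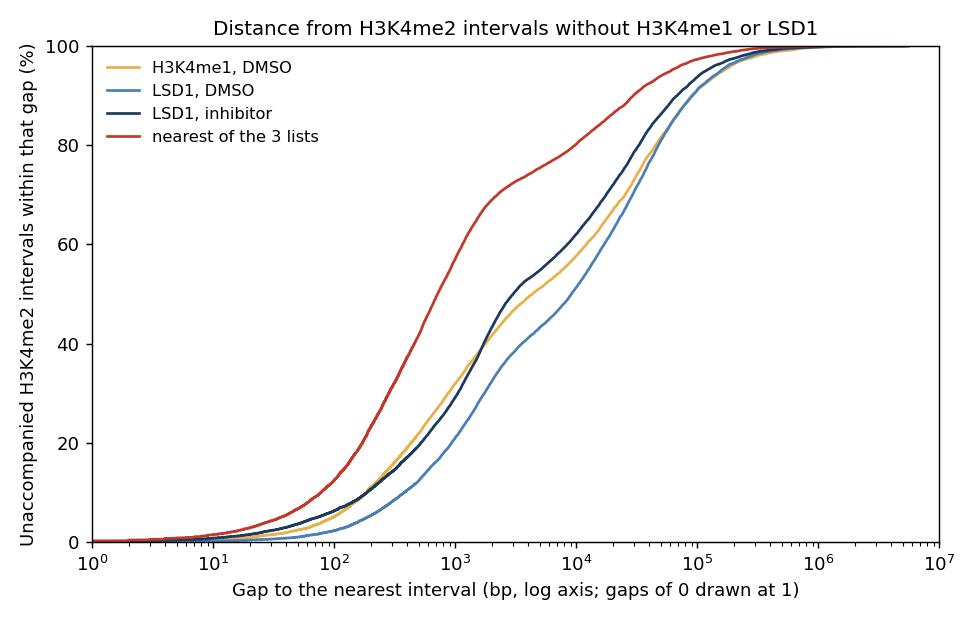
Curves give the share of the 16486 unaccompanied intervals (%) that have a peak of each list within the gap on the x axis (bp, log axis). Within 1 kb the nearest of the 3 lists has been met by 57.0%, and the inhibitor LSD1 curve runs above the DMSO LSD1 curve.

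As called in the deposited list, H3K4me2 was broken into short pieces. The gap from an unaccompanied interval to the next H3K4me2 interval of any class had a median of 221.5 bp, and it was 183 to 205 bp for the other classes. Intervals were therefore also joined into islands over gaps of up to 1 kb, a step added after the data were seen, which gave 39768 islands. In them, 9499 unaccompanied intervals (57.6%, 56.9 to 58.4%) shared an island with an accompanied one, 3814 (23.1%) were alone, and 3173 (19.2%) shared an island only with others of their kind. The 42.4% in islands without any accompanied interval made up 5165 islands. This share was 50.2% when gaps of up to 500 bp were joined and 36.3% with 5 kb.

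In the 6872 mixed islands, unaccompanied intervals were mostly the small outer pieces. Such islands held a median of 3 intervals, so many of the places in them were edges. Unaccompanied intervals lay at an edge of the island in 75.6% of cases, against 51.7% for the accompanied intervals of the same islands, without matching for width. Their median widths were 249 bp at an edge and 311 bp between other H3K4me2 intervals, compared with 868 bp for the accompanied ones, and their median scores were 60 and 82 compared with 186. The highest-scoring interval was unaccompanied in 1163 mixed islands (16.9%), while unaccompanied intervals were 42.8% of the 22190 intervals of these islands. LSD1-only intervals were present in 55.9% of mixed islands, intervals with both in 40.9% and with H3K4me1 only in 39.7%.

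Islands made of unaccompanied intervals alone were of 2 sorts. In 3814 the island was a single interval, with a median width of 256 bp and a median score of 63. In the other 1351 there were from 2 to 7 intervals, spanning a median of 1339 bp, with a median highest score of 140. The single intervals of these multi-part islands had a median width of 341 bp and a median score of 82. In 2295 islands every interval was over 10 kb from H3K4me1 and LSD1. These are the H3K4me2 sites that stood apart from both by more than 10 kb throughout, and they were 5.77% of all islands.

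**Figure D3:**
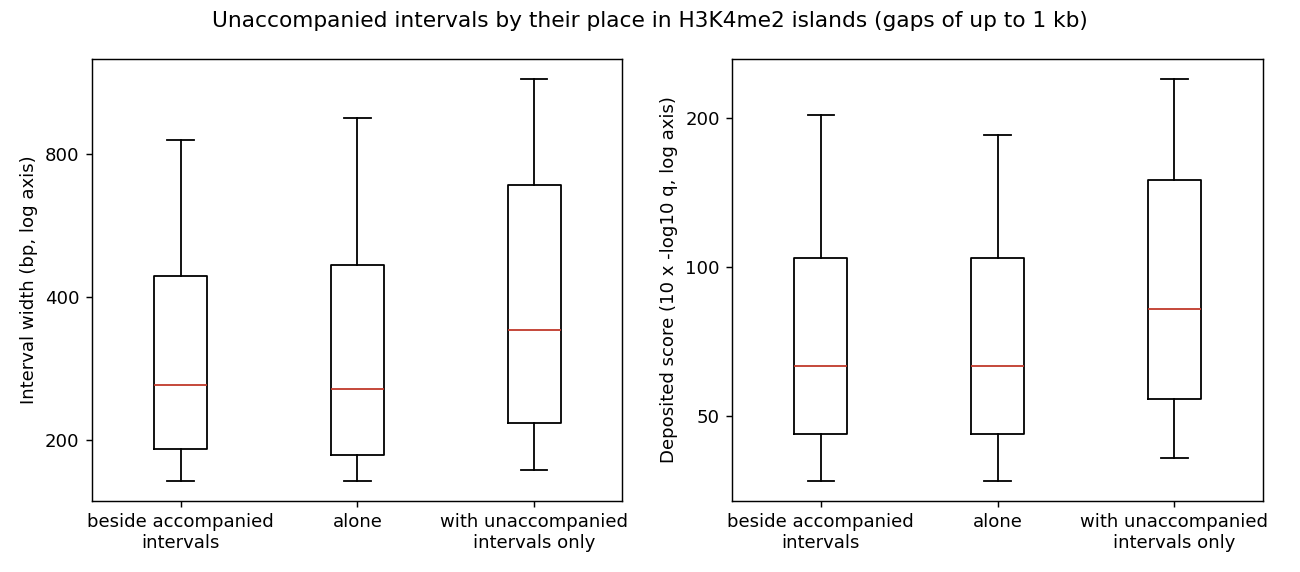
Boxes show the quartiles and the median (red line), and whiskers the 10th and 90th percentiles, of interval width (bp, left) and deposited score (right) on log axes, by the place of an unaccompanied interval in its island. Intervals that share an island only with others of their kind have the highest medians, 341 bp and 82.

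Unaccompanied intervals often had one of their own kind nearby, as did every class. The nearest H3K4me2 neighbour was of the same class for 40.2% of unaccompanied, 37.4% of LSD1-only and 46.4% of H3K4me1-only intervals and 49.2% of those with both. Unaccompanied neighbours stood beside 24.9% of LSD1-only and 10.7% of H3K4me1-only intervals and 9.72% of those with both. Another unaccompanied interval was found within 10 kb of 8878 of them (53.9%, 53.1 to 54.6%). The share with one of the same class within 10 kb was 46.9% for LSD1-only, 65.1% for H3K4me1-only and 64.7% for intervals with both. In the whole list, 87.3% had an H3K4me2 interval of any class within 10 kb. All these shares depend on class size. Of the list, 20.2% were unaccompanied, 16.7% LSD1-only, 30.0% H3K4me1-only and 33.1% had both. Joined over gaps of up to 12500 bp, the unaccompanied intervals formed 10982 clusters, of which 7342 held 1 interval. Within the 3530 intervals with several summits, neighbouring summits were a median of 213 bp apart (quartiles 109 and 314 bp).

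The largest cluster, at chr17:7107923-7152297, held 17 unaccompanied intervals over 44.4 kb, with scores from 34 to 283. It was mixed, since 32 H3K4me2 and 10 H3K4me1 intervals, 1 DMSO and 3 inhibitor LSD1 peaks lay in the same span. The next, at chr16:3149876-3186333, had 10 unaccompanied among 14 H3K4me2 intervals, with 1 H3K4me1 interval, 1 DMSO and 2 inhibitor LSD1 peaks. Of the 3 clusters of 9, the one at chr18:47808264-47835303 was the purest. All of its 9 H3K4me2 intervals were unaccompanied, with scores from 50 to 390 over 27.0 kb, no H3K4me1 interval, no DMSO LSD1 peak and 1 inhibitor LSD1 peak. At chr5:87951588-87987179, by contrast, 9 of 20 H3K4me2 intervals were unaccompanied, among 10 H3K4me1 intervals and 6 DMSO and 7 inhibitor LSD1 peaks. At chr2:176943305-176964130 it was 9 of 12, with 3 peaks in each of the other 3 lists.

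Chromosomes differed widely in the unaccompanied share of their H3K4me2 intervals. Chromosome 13 had the lowest, 229 of 2247 (10.2%, 9.01 to 11.5%), followed by chromosome 11 with 12.9% and chromosome 20 with 13.6%. The highest autosome was chromosome 19, with 1046 of 3335 (31.4%, 29.8 to 33.0%), followed by chromosome 22 with 28.5% and chromosome 16 with 28.3%. Chromosome X had 743 of 2291 (32.4%, 30.5 to 34.4%). On chromosome Y, 47 of 56 H3K4me2 intervals were unaccompanied (83.9%, 72.2 to 91.3%), with scores from 23 to 140, and the other lists held only 28 H3K4me1 intervals, 17 DMSO and 11 inhibitor LSD1 peaks there. From the width deciles of their intervals alone, the share would be 20.1% on chromosome 13, 19.3% on chromosome 19 and 21.0% on chromosome X.

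The share went along with the background of the lists and with the relative number of H3K4me1 intervals. For each peak the background was solved as the level at which the deposited fold and −log10 p both hold for a Poisson count, and is given as the chromosome's median over the list's median. In the H3K4me1 list this implied background was 1.30 on chromosome 13, 1.44 on chromosome 11 and 1.18 on chromosome 20, and 0.774 on chromosome 22, 0.808 on chromosome 16 and 0.729 on chromosome X. Over 24 chromosomes, Spearman's rho between this background and the unaccompanied share was −0.78 and Pearson's r −0.54, and on chromosomes 1 to 22 they were −0.71 and −0.67. These are descriptions over points that share the same 4 libraries, and the part of the background in the differences was not tested. With the background of the H3K4me2 list rho was −0.80. With the number of H3K4me1 intervals per H3K4me2 interval, which bears on the rule itself, rho and r were both −0.87 over 24 chromosomes, and rho was −0.84 on chromosomes 1 to 22. Chromosome 19 stood apart, with a background of 1.06 beside its high share. It had 0.675 H3K4me1 intervals per H3K4me2 interval, the lowest of the autosomes, against 1.41 on chromosome 13, and 25.3% of its H3K4me2 intervals carried LSD1 without H3K4me1, against 16.7% in the whole list. Leaving out chromosome 19 was not planned. On the other 21 autosomes rho with the H3K4me1 background was −0.85, against −0.71 with chromosome 19 kept. With the number of H3K4me1 intervals per H3K4me2 interval it was −0.81, against −0.84.

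**Figure D4:**
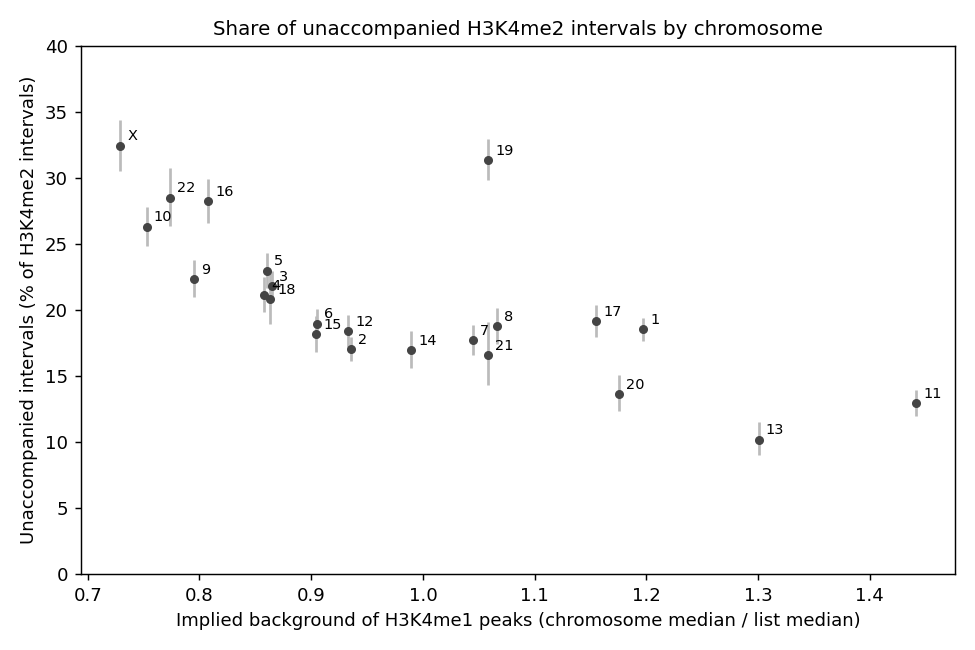
Each point is a chromosome (Y is left out), with the implied background of its H3K4me1 peaks relative to the list median on the x axis and the unaccompanied share of its H3K4me2 intervals (%) with its 95% Wilson interval on the y axis. The share tends to be lower where the background is higher, from 32.4% on X, at a background of 0.729, to 10.2% on 13, at 1.30, and 12.9% on 11, at 1.44; chromosome 19, at 31.4% and 1.06, lies above the chromosomes of like background.

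Since LSD1 was mapped with and without inhibitor, the lists also show how near each condition's LSD1 came. With DMSO alone as the LSD1 list, 21624 H3K4me2 intervals lacked both H3K4me1 and LSD1, and with the inhibitor list alone 18670. Between them, 5138 H3K4me1-free intervals carried LSD1 with inhibitor only (median score 145) and 2184 with DMSO only (median score 116), and 6279 carried it in both (median score 168). All 3 sets scored higher than the 16486 unaccompanied intervals, whose median was 65. They were also wider, with median widths of 582, 476.5 and 700 bp in the same order, against 272 bp. These 3 sets were not compared at like width. For LSD1-only intervals as a whole, the median score in width decile 6 was 127, against 92 for unaccompanied ones.

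The unaccompanied intervals were also closer to LSD1 in the inhibitor list than in the DMSO list. They were chosen for lacking a peak of either LSD1 list, so these gaps are a description. The median gap was 3.01 kb (2.83 to 3.20 kb) with inhibitor and 9.14 kb (8.70 to 9.64 kb) with DMSO, and 29.2% against 21.0% had an LSD1 peak within 1 kb. The inhibitor peak was the nearer for 9841 intervals (59.7%, 58.9 to 60.4%) and the DMSO peak for 6624. For H3K4me1-only intervals the order was the same, with medians of 1.91 kb with inhibitor and 2.79 kb with DMSO, and 55.9% were nearer to an inhibitor peak. In the top score decile the medians were 1.51 and 12.7 kb for the 389 unaccompanied intervals and 1.07 and 6.94 kb for the 1081 H3K4me1-only ones. There 66.1% and 67.1% were nearer to an inhibitor peak, so among strong intervals the classes were alike in that share. The inhibitor list is longer, at 49597 against 45188 peaks. With both at 45188, a setting added after the data were seen, the inhibitor median for unaccompanied intervals was 4.50 kb and 55.8% were nearer to an inhibitor peak. In the top score decile it was then 4.17 kb, with 60.7% nearer, against 63.6% of the H3K4me1-only intervals. With only LSD1 peaks at a −log10 q of 2 or more, also added later, the medians were 10.3 kb with inhibitor and 40.2 kb with DMSO, from 37356 and 21701 peaks. Lists of equal length thus still differed in peak strength. With 1 library per condition, the treatment and the library cannot be told apart.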

How the data were processed

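Deposited peak lists of 4 ChIP-seq libraries were used. BWA, Picard and MACS2 2.0, with build hg19, are named in the submitters' processing notes; their roles, the control input and the depth were not given in the sources at hand. Without a header, columns were taken in the order that MACS2 writes. The deposited score was 10 times −log10 q in 100% of rows (tolerance 1). The deposited fold enrichment is a ratio over the caller's background, and p- and q-values were deposited by the authors as −log10 for each peak. LSD1 lists have the broad-peak layout and histone lists the narrow-peak layout, with 1 row per summit. The 178083 H3K4me2 rows were reduced to 81619 distinct intervals and the 175135 H3K4me1 rows to 94689, keeping the highest score, fold and −log10 q.

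Overlap, gaps and islands were computed in Python 3.11.15 with pandas 2.3.3 and scipy 1.17.1, and checked on simulated data. Intervals of medians come from binomial order statistics. The implied background used a pseudocount of 1. Regions are named by rule: the 10 highest-scoring, and 5 each of the widest, those with most summits, the farthest and the largest clusters. At the boundary 5 are named on each side. The text gives some of them, and at the boundary the highest-scoring on each side. The set of intervals and these rules were chosen with earlier results of these data known. The gene and promoter tables given are on GRCh38, so no gene, start site, base composition, motif or sequence is given for these hg19 regions, and the planned gene groups were not analysed here.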

Additional observations from a re-analysis of the deposited data

How the results depend on the processing

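No paired analysis was possible because no group had more than 1 library. Planned base composition and start-site shares were not run, since no genome of that build was given. LSD1 at −log10 q of 2 or more and the other stitching gaps were chosen after the data were seen. Depth is unknown, which limits what can be said of weak peaks outside a list. The size of the unaccompanied set depended on the overlap rule. Where its construction does not show it, the cause was not tested.

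Values follow in one order: unaccompanied share, median width, score percentile, median fold, single-summit share, median gap to H3K4me1, median gap to LSD1, share within 10 kb of another, chromosome 19 share and share in islands without accompanied intervals. Where a setting shortens the H3K4me2 list, shares of the list and score percentiles refer to the shortened list. Median width, fold and summits of that shortened list are not given beside them. As reported, the values were 20.2%, 272 bp, 36.9, 5.52, 78.6%, 4.35 kb, 1.89 kb, 53.9%, 31.4% and 42.4%. Reciprocal overlap of 50% gave 74.5%, 337 bp, 44.6, 5.69, 68.1%, 0 kb, 0.216 kb, 81.6%, 78.4% and 65.8%. Summits inside the other interval gave 34.8%, 394 bp, 51.97, 6.22, 61.4%, 1.32 kb, 0.654 kb, 66.9%, 49.5% and 54.9%. The highest-scoring 50% of each list gave 34.7%, 808 bp, 48.98, 9.49, 33.96%, 25.3 kb, 20.7 kb, 53.8%, 46.5% and 73.8%. With no H3K4me1 or LSD1 within 1 kb they were 8.68%, 285 bp, 40.8, 5.53, 76.9%, 23.1 kb, 13.2 kb, 47.7%, 13.8% and 71.1%.

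With DMSO LSD1 only they were 26.5%, 309 bp, 44.6, 5.78, 71.2%, 4.48 kb, 9.13 kb, 61.6%, 42.0% and 50.01%. With inhibitor LSD1 only they were 22.9%, 283 bp, 40.8, 5.53, 76.1%, 4.28 kb, 2.89 kb, 56.5%, 35.6% and 45.1%. With LSD1 at −log10 q of 2 or more they were 24.6%, 298 bp, 42.4, 5.62, 72.9%, 4.72 kb, 8.93 kb, 59.8%, 38.3% and 49.9%. H3K4me2 at −log10 q of 5 or more gave 18.3%, 332 bp, 37.5, 6.05, 71.2%, 6.14 kb, 1.92 kb, 48.2%, 27.7% and 46.1%. On chromosomes 1 to 22, 8 of 10 values stayed within their intervals. Among them is the chromosome 19 share, which leaving out X and Y cannot change. The values outside were an unaccompanied share of 19.8% and a gap to H3K4me1 of 3.95 kb. Stitching over 500 bp gave 50.2% and over 5 kb 36.3% in islands without accompanied intervals.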
